A study of Homo sapiens with 4 samples.

Results

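The insulin-like growth factor (IGF) system was followed across 4 mRNA-seq libraries through 10 genes chosen by name, out of 58302 genes in the files. They are the growth factor gene IGF2, its non-coding neighbour H19, the receptor genes IGF1R and IGF2R, the binding protein genes IGFBP2, IGFBP3 and IGFBP4, and the mRNA-binding protein genes IGF2BP1, IGF2BP2 and IGF2BP3. The cells were HepG2, an established human line that the paper describes as hepatocellular carcinoma, labelled as wild type. They were grown in MEM with fetal bovine serum, which itself carries growth factors. Melatonin, the pineal hormone, was given at 1 mM and compared in separate libraries against DMSO after 24 h and after 48 h, which gives a DMSO and a melatonin library at each time. Where 4 values stand in a row, they are those of DMSO and then melatonin at 24 h, followed by DMSO and then melatonin at 48 h. Each condition has 1 library of this 1 cell line, so there is no spread between cultures to set a difference against, and no p-value for a condition was computed. The study asked mainly whether melatonin acts on hepatocellular carcinoma cells by way of RNA splicing, and also which genes change in expression. Only gene levels are taken up here. A library in DMSO at the same time is the background for each melatonin value.

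IGF2 encodes a fetal growth factor that the liver and many liver tumours make. It signals through the tyrosine kinase receptor IGF1R and through the insulin receptor, while IGF2R, also the receptor for mannose 6-phosphate, carries it to lysosomes for breakdown. Secreted binding proteins hold the ligand outside the cell, and the IGF2BP proteins, oncofetal RNA-binding proteins, bind IGF2 mRNA and many other transcripts. IGF2 and H19 are imprinted neighbours on chromosome 11: IGF2 is usually transcribed from the paternal copy and H19 from the maternal copy, under a shared control region.

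Levels are given as FPKM, the unit the authors deposited, in which fragments are divided by gene length in kilobases and by a library size. FPKM times gene length was a whole multiple of 1 step per library for 100% of the values above 0, within 0.02 of a step, so the reads behind each value were recovered. Reads on genes numbered 21616676, 22850046, 23086025 and 22820651 over the 4 libraries, and the 10 genes took 0.255% to 0.335% of them. Values in brackets are 95% exact intervals of those reads, which cover counting error only. A log2 fold change is that of FPKM + 1, and on this scale differences of weakly expressed genes come out too small. Genes entered a comparison where FPKM reached 1 in either library, and the words rose and fell are kept for a log2 fold change of 1 or more in size, which is 2-fold. Mitochondrial genes took 20.0% and 16.6% of the reads at 24 h (DMSO and melatonin) and 9.77% and 11.9% at 48 h. All 10 hepatocyte lineage markers had an FPKM of at least 1 in every library, with a sum of 7428 to 9403. Of 8 markers of other cell types only ACTA2 reached 1, the sum of all 8 was 3.23 to 4.50, and COL3A1 was at 0. None of 28 housekeeping genes was listed at 0. As in any bulk sample, fewer cells that express a gene and less RNA per cell cannot be told apart.

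The sequence that the annotation gives for the start of the gene is shown for 3 genes, because IGFBP3 and IGFBP4 were those of the 3 binding protein genes among the 10 that had more RNA under melatonin at both times, and H19 had no more than 2 reads in any library. Each stretch holds 250 bases before and 50 bases after the start of the gene in RefSeq on GRCh38.p14. Capitals mark GGGCGG, the core of a GC box, and the TATA-like strings TATAAA and TATATA, on either strand. No TATA-like string shared bases with a GC box in these stretches.
IGFBP3 (chr7:45921223-45921522, reverse strand): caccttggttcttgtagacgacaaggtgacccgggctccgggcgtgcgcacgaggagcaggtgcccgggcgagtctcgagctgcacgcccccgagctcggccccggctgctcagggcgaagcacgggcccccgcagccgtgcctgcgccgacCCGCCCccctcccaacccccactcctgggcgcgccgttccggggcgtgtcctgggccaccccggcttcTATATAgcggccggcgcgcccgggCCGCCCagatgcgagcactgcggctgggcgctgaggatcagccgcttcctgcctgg
IGFBP4 (chr17:40443200-40443499, forward strand): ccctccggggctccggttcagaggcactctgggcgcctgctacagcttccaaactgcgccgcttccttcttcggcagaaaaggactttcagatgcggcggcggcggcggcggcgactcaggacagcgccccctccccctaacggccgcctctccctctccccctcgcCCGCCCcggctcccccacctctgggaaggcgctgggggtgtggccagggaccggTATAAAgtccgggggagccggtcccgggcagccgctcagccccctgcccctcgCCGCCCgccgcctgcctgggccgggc
H19 (chr11:2001217-2001516, reverse strand): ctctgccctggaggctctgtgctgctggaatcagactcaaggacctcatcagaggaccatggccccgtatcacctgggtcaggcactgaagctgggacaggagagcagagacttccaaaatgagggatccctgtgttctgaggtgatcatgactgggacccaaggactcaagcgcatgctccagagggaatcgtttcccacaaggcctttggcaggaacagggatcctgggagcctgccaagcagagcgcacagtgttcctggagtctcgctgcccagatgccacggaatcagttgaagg

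A start window was found for 8 of the 10 genes, and IGF2 and IGF2BP1 had none in the table used. The TATA-like string of IGFBP3 began 30 bases before the start of the gene and that of IGFBP4 began 29 bases before it. Among the 35116 windows of the table, TATATA was present on either strand in 3.99% and TATAAA in 11.5%. In the leading window of the other 6 genes neither string was present. GGGCGG occurred in 45.0% of all windows and in the leading window of 6 of the 8 genes, all but H19 and IGF2BP3. CACGTG, the E-box read by several helix-loop-helix factors, occurred in 7.26% of windows and in those of IGF2R, with 3 copies, and IGF2BP3, with 2. GTAAACA, which FOXO factors can bind, was in 3.42% of windows and CCAAT in 34.6%, and the leading windows of the 8 genes held neither. Among the further windows, 1 of IGF2BP2 held TATAAA and CCAAT, and 1 of IGFBP2 held CCAAT. The percentages are over all windows of the table, not over leading ones only. The H19 window had a GC content of 57.7% with 6 CpG, against 74.7% with 36 CpG for IGFBP3 and 74.0% with 30 CpG for IGFBP4, where the median window had 58.7% and 14. These matches describe letters and not sites in use.

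The order of levels, per gene length, was headed by IGF2 in all 4 libraries. IGF2 was the 86th most abundant gene in DMSO at 24 h by FPKM and the 292nd in melatonin at 48 h. IGF2R came next in every library, and IGFBP2 and H19 were the lowest of the 10 in every library. Between them the order differed. IGF2BP1 took rank 3 at 24 h in both libraries, IGF2BP2 took rank 3 in DMSO at 48 h, and IGFBP4 took rank 3 in melatonin at 48 h. Neighbours whose intervals overlapped were IGF2BP2 and IGFBP4 and also IGFBP3 and IGFBP2 in DMSO at 24 h, and IGF2BP1 and IGFBP4 in melatonin at 24 h. At 48 h no neighbours overlapped within a library.

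**Figure D1:**
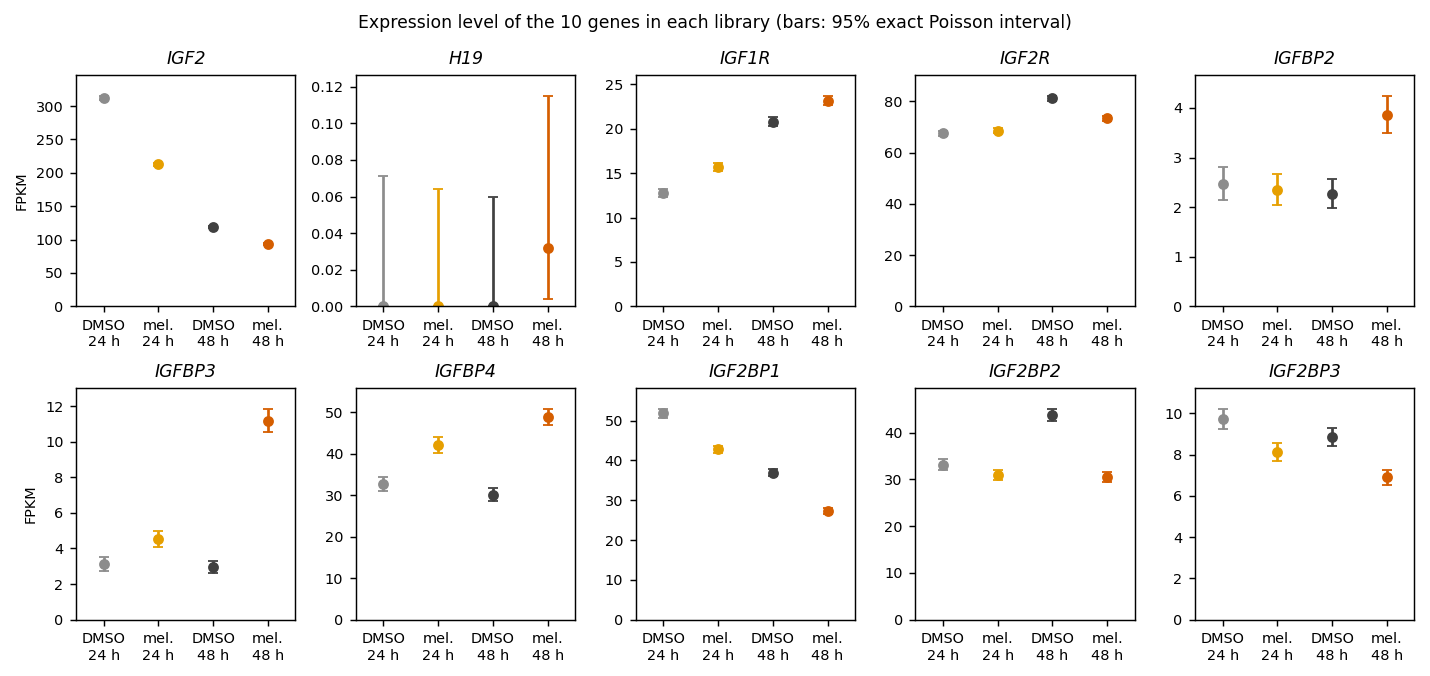
FPKM of the 10 genes (vertical axis from 0, a scale of its own in each panel) in the 4 libraries, with points for the deposited value and bars for the 95% exact Poisson interval of the recovered reads. In FPKM IGF2 and IGF2BP1 are lower in each library from left to right (rescaled to a common sum, as TPM, IGF2BP1 is not, at 108 in DMSO at 24 h and 109 at 48 h), IGFBP3 stands at 11.2 in melatonin at 48 h and at 4.53 or less in the others, and the H19 panel spans 0 to 2 reads.

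The ligand gene IGF2 (ENSG00000167244) occupies 2129112 to 2141238 on the reverse strand of chromosome 11 (hg38). Its FPKM was 312 (309 to 316) in DMSO and 213 (210 to 215) in melatonin at 24 h, on 35888 and 27012 reads. The later cultures gave 119 (117 to 121) in DMSO and 93.3 (91.7 to 94.9) in melatonin, on 16317 and 12966 reads. No intervals overlapped, and the melatonin library was below the DMSO library at both times. The ratio of melatonin to DMSO was 0.681 (0.671 to 0.692) at 24 h and 0.785 (0.767 to 0.803) at 48 h. These are log2 fold changes of -0.55 and -0.35, short of the 2-fold threshold. At 24 h 8.13% of the 13582 tested genes had a lower log2 fold change than IGF2, and at 48 h 20.2% of 13805 had.

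The larger difference in IGF2 was between the times. The log2 fold change of 48 h over 24 h was -1.39 in DMSO and -1.18 in melatonin, so IGF2 fell at least 2-fold in both, and 1.44% and 1.04% of tested genes had lower values. On the whole, 4.24% of the tested genes fell 2-fold between the DMSO libraries and 1.71% between the melatonin libraries. With the values rescaled to a common sum (TPM) the log2 fold changes of IGF2 were -0.89 and -0.91, in the same direction but short of 2-fold. With library sizes that leave mitochondrial genes out they were -1.40 and -1.13. The time comparisons reuse the libraries of the melatonin comparisons.

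The files end IGF2 17153 bases short of the end that GENCODE 44 gives it on its upstream side, so RNA of that stretch was not counted for it. INS-IGF2, a readthrough gene that overlaps it on the same strand, was listed at 0 reads in every library, and reads of shared exons could have been assigned to either gene. The antisense gene IGF2-AS had 7 to 12 reads a library. MIR483, the hairpin of a microRNA inside IGF2 on the same strand, had 18, 5, 10 and 8 reads over the 4 libraries, made from polyadenylated RNA that does not hold mature microRNAs.

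By a rule on the pattern over the 4 libraries (centred log2 of FPKM + 1, Euclidean distance, 5792 genes whose FPKM reached 5 throughout), genes close to IGF2 were ALDOA and PKM, at distances of 0.22 and 0.24. Both encode glycolytic enzymes. ALDOA had FPKM values of 286, 188, 109 and 100.4 over the 4 libraries. In the same order PKM had 138, 92.2, 55.3 and 49.7. With 4 points a gene, this is a description of the levels.

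H19 (ENSG00000130600), a long non-coding RNA, lies on the reverse strand of chromosome 11 from 1995163 to 2001470, 127642 bases from IGF2. It had 0 reads in DMSO at 24 h, 0 in melatonin at 24 h, 0 in DMSO at 48 h and 2 in melatonin at 48 h. A count of 0 allows up to 3 reads, which is an FPKM of up to 0.0578, 0.0524 and 0.0484 in the libraries at 0, and the 2 reads are an FPKM of 0.0319 (0.00386 to 0.115). H19 RNA was thus not detectable at this depth in 3 libraries, and no fold change is given. Its level was under that of IGF2 by at least 2455-fold in DMSO at 48 h, with H19 set at 3 reads, the smallest such bound of the 3 libraries. In melatonin at 48 h, on the 2 reads, the ratio of IGF2 to H19 was 2926 (810 to 24164). The files end H19 3082 bases short of the end in GENCODE 44 on its upstream side, so RNA of that stretch was not counted for it. The rule on patterns gave GTF3C2, RASA1 and NADK for H19, at distances of 0.02 to 0.03. H19 was flat at or near 0, so these are genes that differed little among the libraries.

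H19 is also the host of miR-675, whose mature forms are shown because no read was found on the hairpin in any library. The seed, bases 2 to 8, is in capitals, from RefSeq on GRCh38.p14, and the forms have different seeds.
hsa-miR-675-5p (chr11:1996800-1996822, reverse strand): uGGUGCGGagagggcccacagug
hsa-miR-675-3p (chr11:1996768-1996787, reverse strand): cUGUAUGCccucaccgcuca
MIR675 lies on chromosome 11 from 1996759 to 1996831, inside H19 on the same strand, and the mature microRNAs were not measured.

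The receptor gene IGF1R (ENSG00000140443, chromosome 15, 98648971 to 98964530, forward strand) had an FPKM of 12.8 (12.3 to 13.2) in DMSO and 15.7 (15.3 to 16.2) in melatonin at 24 h. At 48 h it had 20.8 (20.3 to 21.3) in DMSO and 23.2 (22.6 to 23.7) in melatonin. Each value lay above the one before it with no overlap of intervals. The melatonin to DMSO ratio was 1.23 (1.17 to 1.29) at 24 h and 1.12 (1.08 to 1.15) at 48 h, with log2 fold changes of 0.28 and 0.15. From 24 h to 48 h the log2 fold change was 0.66 in DMSO and 0.53 in melatonin, and with TPM they were 1.18 and 0.82, the former past 2-fold.

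IGF2R (ENSG00000197081, chromosome 6, 159969099 to 160113507, forward strand) had an FPKM of 67.6 (66.7 to 68.6) in DMSO and 68.5 (67.6 to 69.4) in melatonin at 24 h. It had 81.3 (80.3 to 82.2) in DMSO and 73.3 (72.4 to 74.3) in melatonin at 48 h. At 24 h the intervals overlapped, with a ratio of 1.01 (0.993 to 1.03), and at 48 h melatonin was lower with a ratio of 0.903 (0.887 to 0.918). The log2 fold changes were 0.02 and -0.15, near the median of all tested genes, which was 0.02 at 24 h and -0.02 at 48 h. AIRN, the antisense RNA of IGF2R, had 0 to 5 reads a library.

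The insulin receptor gene INSR, from a list of other genes of the system, had FPKM values of 16.3, 14.4, 15.9 and 14.2 over the 4 libraries. IGF1R stood below INSR in DMSO at 24 h, at a ratio of 0.783 (0.745 to 0.823), and above it in the other libraries, at 1.09 (1.04 to 1.14), 1.31 (1.26 to 1.37) and 1.64 (1.57 to 1.71).

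Ratios of genes within a library are free of any scaling between libraries. The ratio of IGF2 to IGF2R was 4.62 (4.54 to 4.70) in DMSO and 3.11 (3.05 to 3.16) in melatonin at 24 h, and 1.46 (1.43 to 1.49) and 1.27 (1.25 to 1.30) at 48 h. The ratio of IGF2 to IGF1R was 24.4 (23.6 to 25.3) and 13.5 (13.1 to 14.0) at 24 h, and 5.72 (5.55 to 5.89) and 4.02 (3.91 to 4.14) at 48 h. Both were lower in melatonin than in DMSO at each time and lower at 48 h than at 24 h, with no overlap of intervals. These are ratios of RNA and not of protein.

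**Figure D2:**
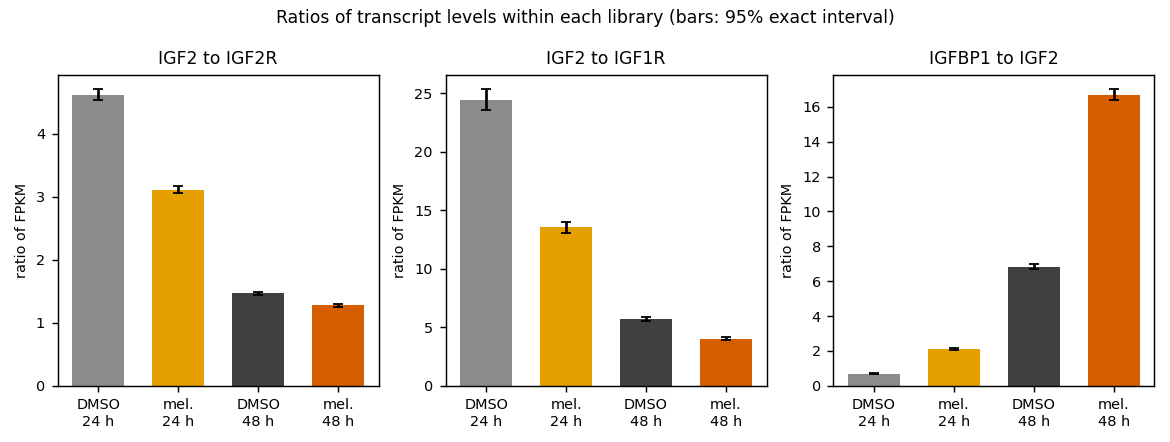
Ratios of FPKM within each library for IGF2 to IGF2R, IGF2 to IGF1R and IGFBP1 to IGF2 (vertical axes from 0), with 95% exact intervals of the recovered reads. IGF2 to IGF2R goes from 4.62 in DMSO at 24 h to 1.27 in melatonin at 48 h, and IGFBP1 to IGF2 from 0.692 to 16.7.

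Each of IGFBP2, IGFBP3 and IGFBP4 had more RNA in melatonin than in DMSO at 48 h. IGFBP3 encodes the main carrier of IGFs in blood and was the gene of the 10 that passed 2-fold between melatonin and DMSO, at 48 h. IGFBP3 (ENSG00000146674, chromosome 7, 45912245 to 45921874, reverse strand) had an FPKM of 3.12 (2.76 to 3.52) in DMSO and 4.53 (4.11 to 4.98) in melatonin at 24 h, on 262 and 420 reads. The later cultures had 2.93 (2.61 to 3.29) in DMSO and 11.2 (10.5 to 11.8) in melatonin, on 294 and 1134 reads. The DMSO libraries overlapped each other, and both melatonin libraries lay above them. The ratio was 1.45 (1.24 to 1.70) at 24 h and 3.81 (3.35 to 4.35) at 48 h. At 48 h the log2 fold change was 1.63, above 99.7% of tested genes. IGFBP3 rose from 24 h to 48 h in melatonin (log2 fold change 1.14) and had -0.07 in DMSO.

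IGFBP4 encodes a binding protein that holds IGFs back from the receptor until it is cleaved by the protease PAPPA. IGFBP4 (ENSG00000141753, chromosome 17, 40443461 to 40457731, forward strand) had an FPKM of 32.7 (30.9 to 34.5) in DMSO and 42.1 (40.2 to 44.0) in melatonin at 24 h. At 48 h it had 30.1 (28.5 to 31.6) and 48.8 (46.9 to 50.8). Both melatonin libraries were above both DMSO libraries. The ratios were 1.29 (1.20 to 1.38) and 1.62 (1.52 to 1.73), with log2 fold changes of 0.35 and 0.68, under 2-fold. PAPPA was at an FPKM of 0.0937 to 0.122 and PAPPA2 at 0 reads in every library.

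IGFBP2, a fetal binding protein often raised in tumours, lies on the forward strand of chromosome 2 from 216632828 to 216664436 (ENSG00000115457). Its FPKM was 2.46 (2.14 to 2.81) in DMSO and 2.34 (2.04 to 2.66) in melatonin at 24 h, and 2.27 (1.99 to 2.57) and 3.85 (3.49 to 4.25) at 48 h. The melatonin library of 48 h stood above the others, which overlapped one another. The ratio was 0.951 (0.786 to 1.15) at 24 h, where a difference was not detectable at this depth, and 1.70 (1.45 to 2.00) at 48 h, with a log2 fold change of 0.57. The sum of IGFBP2, IGFBP3 and IGFBP4 was 38.3 and 48.9 at 24 h and 35.3 and 63.8 at 48 h (DMSO and melatonin), and the share of IGFBP3 in it was 8.16%, 9.26%, 8.32% and 17.5% in the same order.

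By level another gene of the family, IGFBP1, exceeded these binding proteins in every library. It encodes a short-lived binding protein of liver whose transcription insulin lowers. IGFBP1 had an FPKM of 216 (211 to 222) in DMSO and 450.1 (443 to 457) in melatonin at 24 h, and of 811 (802 to 821) and 1557 (1544 to 1570) at 48 h. The ratios of melatonin to DMSO were 2.08 (2.02 to 2.14) and 1.92 (1.89 to 1.95), so the gene rose at 24 h (log2 fold change 1.05) and had 0.94 at 48 h. From 24 h to 48 h it rose in DMSO (1.90) and in melatonin (1.79). IGFBP1 made up 83.0% and 89.1% of the summed FPKM of IGFBP1 to IGFBP7 at 24 h and 95.2% and 95.8% at 48 h (DMSO and melatonin). Relative to IGF2 it stood at 0.692 (0.674 to 0.711) and 2.12 (2.07 to 2.16) at 24 h, and at 6.83 (6.70 to 6.96) and 16.7 (16.4 to 17.0) at 48 h. IGFBP6 had an FPKM of 5.03 and 4.78 at 24 h and of 4.28 and 3.63 at 48 h, and IGFBP7 had 1.07 and 1.40 and then 1.04 and 0.910. Melatonin was the lower at 48 h for both, with ratios of 0.848 (0.645 to 1.11) and 0.875 (0.554 to 1.38) whose intervals span 1. IGFBP5 had 0 reads in 3 libraries and an FPKM of 0.0230 in melatonin at 24 h.

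**Figure D3:**
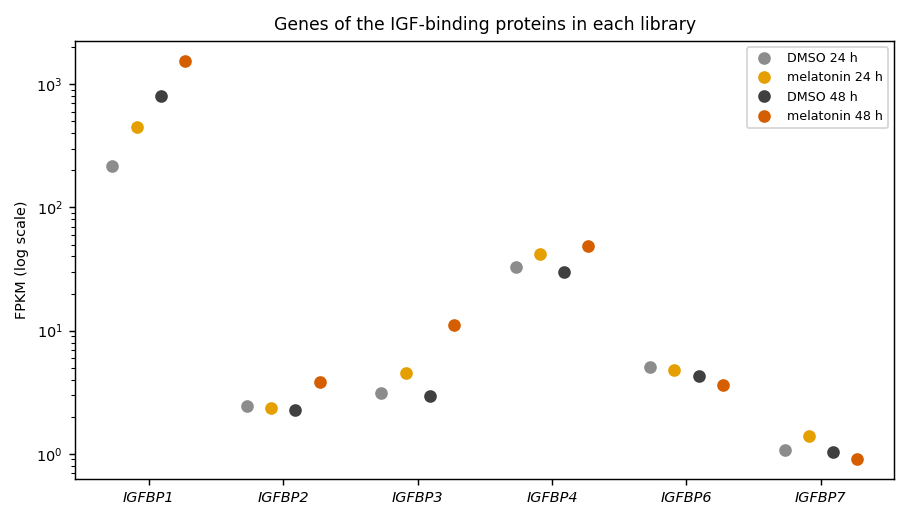
FPKM of 6 IGF-binding protein genes (vertical axis, log scale) in the 4 libraries, with 1 point a library and IGFBP5 left out because it was at 0 in 3 of them. IGFBP1 spans 216 to 1557, and in IGFBP2, IGFBP3 and IGFBP4 the melatonin library of 48 h is the highest.

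The IGF2BP genes had less RNA in melatonin at both times, by less than 2-fold. IGF2BP1 (ENSG00000159217, chromosome 17, 48997412 to 49055650, forward strand) had an FPKM of 51.8 (50.7 to 52.9) in DMSO and 42.7 (41.8 to 43.7) in melatonin at 24 h. At 48 h it had 36.9 (36.0 to 37.7) and 27.3 (26.5 to 28.0). No intervals overlapped. The ratio was 0.825 (0.800 to 0.851) at 24 h and 0.739 (0.714 to 0.766) at 48 h, with log2 fold changes of -0.27 and -0.42. From 24 h to 48 h it had -0.48 in DMSO and -0.63 in melatonin, and with TPM the value in DMSO turned to 0.01.

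IGF2BP2 (ENSG00000073792, chromosome 3, 185643739 to 185825056, reverse strand) had an FPKM of 33.1 (31.9 to 34.4) in DMSO and 30.9 (29.8 to 32.0) in melatonin at 24 h, and of 43.8 (42.5 to 45.1) and 30.4 (29.4 to 31.5) at 48 h. The DMSO library of 48 h stood above the others. The ratio was 0.932 (0.886 to 0.982) at 24 h and 0.695 (0.664 to 0.728) at 48 h. The log2 fold changes were -0.10 and -0.51, and with TPM the value at 24 h was 0.07.

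IGF2BP3 (ENSG00000136231, chromosome 7, 23310209 to 23470467, reverse strand) had an FPKM of 9.71 (9.23 to 10.2) and 8.12 (7.70 to 8.56) at 24 h, and of 8.85 (8.42 to 9.28) and 6.89 (6.52 to 7.27) at 48 h. Melatonin was below DMSO at each time, with ratios of 0.836 (0.777 to 0.900) and 0.779 (0.724 to 0.838) and log2 fold changes of -0.23 and -0.32. The end of IGF2BP3 overlaps the gene MALSU1 on the opposite strand, which had 505 to 584 reads, and whether the counting used strand is not stated. The summed FPKM of the 3 genes was 94.6 and 81.8 at 24 h and 89.5 and 64.6 at 48 h (DMSO and melatonin). IGF2BP1 was 54.7% and 52.3% of that sum at 24 h and 41.2% and 42.2% at 48 h, so its place as the leading member held at 24 h and went to IGF2BP2 at 48 h.

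**Figure D4:**
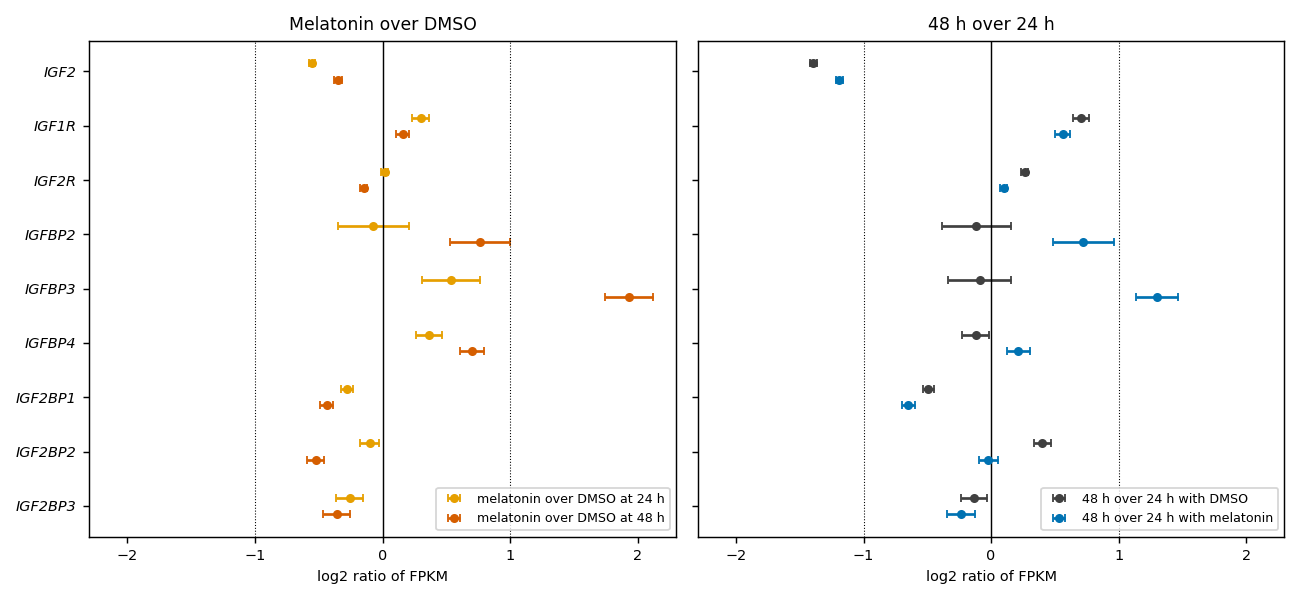
Log2 ratio of FPKM (horizontal axis, no pseudocount) of 9 of the 10 genes with 95% exact intervals for counting error, melatonin over DMSO on the left and 48 h over 24 h on the right, with dotted lines at 2-fold and H19 left out for lack of reads. On the left IGFBP2, IGFBP3 and IGFBP4 at 48 h lie right of 0, IGF2 and the IGF2BP genes lie left of 0, and on the right IGF2 lies beyond the dotted line at -1.39 and -1.19.

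Counted together, 9 of the 10 genes passed the filter at each time and H19 did not. At 24 h none of the 9 changed 2-fold in melatonin, where 4.35% of 13582 tested genes did (1.42% higher and 2.93% lower). The share was 0.63% of protein-coding genes alone. The 9 split into 4 above 0 and 5 below, where 53.5% of all tested genes were above 0, and the median of the 9 was -0.05. At 48 h IGFBP3 rose, where 5.72% of 13805 tested genes changed 2-fold and 2.39% rose. Of protein-coding genes alone 2.39% changed. Again 4 of the 9 were above 0 and 5 below, where 47.5% of all tested genes were above 0, and the median of the 9 was -0.15. The direction was the same at both times for IGF2, IGF1R, IGFBP3, IGFBP4, IGF2BP1, IGF2BP2 and IGF2BP3, and differed for IGF2R and IGFBP2. For IGF2R, IGFBP2 and IGF2BP2 this depended on the scaling. Between the DMSO libraries IGF2 fell and none rose, where 7.74% of tested genes changed and 3.5% rose, or 4.43% of protein-coding genes changed. Between the melatonin libraries IGF2 fell and IGFBP3 rose, where 4.15% of tested genes changed and 2.45% rose, or 0.925% of protein-coding genes changed.

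For the wider pathway, 110 genes in 10 lists were looked up. Of the 77 tested at 24 h, IGFBP1 rose and none fell, where 1.42% of all tested genes rose and 2.93% fell, and the median was 0.00. Of the 76 tested at 48 h none rose and 2 fell, with a median of -0.13, where 2.39% of all tested genes rose and 3.32% fell. The genes that fell were AFP and PHLDA2. AFP, the fetal serum protein of liver and liver tumours, had FPKM values of 1131 and 985 at 24 h and of 1902 and 782 at 48 h (DMSO and melatonin), and its log2 fold change at 48 h was -1.28. PHLDA2, an imprinted gene of the same region as IGF2 that restrains placental growth, had 5.36 and 3.20 at 24 h and 8.40 and 3.30 at 48 h, the last from 176 and 70 reads, with a log2 fold change of -1.13.

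Of the ligands, IGF1 had 0 to 4 reads a library and INS had 0, so IGF2 was the ligand gene of the system with RNA at this depth. IGFALS, which joins IGF and IGFBP3 in a blood complex, had an FPKM of 1.11 and 0.438 at 24 h and of 0.695 and 0.210 at 48 h (DMSO and melatonin), from 48, 21, 36 and 11 reads. STC2 encodes stanniocalcin-2, an inhibitor of the protease PAPPA. It had an FPKM of 37.1 and 35.1 at 24 h and of 64.2 and 31.8 at 48 h, a log2 fold change at 48 h of -0.99. With a pseudocount of 0.1 in place of 1, IGFALS at 24 h and STC2 at 48 h passed 2-fold, both lower in melatonin. ADAM9, a membrane protease, had 29.7 and 27.9 at 24 h and 44.6 and 31.0 at 48 h.

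The tested signalling genes downstream of the receptors held to under 2-fold between melatonin and DMSO. Of all tested genes 4.35% changed 2-fold at 24 h and 5.72% at 48 h. Of protein-coding genes alone 0.63% and 2.39% did. With shares this low, lists of this size can hold no changed gene without differing from other genes. Of 8 tested adaptor genes none changed at either time, and the largest difference was in SHC1, which links receptors to RAS, at 32.1 and 21.6 (24 h) and 28.8 and 17.5 (48 h). IRS1, the docking protein of the insulin and IGF1 receptors, had 6.78, 5.30, 8.28 and 7.37 over the 4 libraries, and its relative IRS2 had 7 to 32 reads. Of 20 tested genes of the PI3K, AKT and mTOR list 16 were above 0 at 24 h and 10 at 48 h, with medians of 0.07 and -0.04. Of all tested genes 53.5% were above 0 at 24 h and 47.5% at 48 h, with medians of 0.02 and -0.02. With TPM the median of all tested genes at 24 h was 0.19. EIF4EBP1, the translation repressor that mTOR phosphorylates, had 61.2 and 94.6 at 24 h and 79.6 and 85.5 at 48 h. MTOR had 9.94 and 11.3 at 24 h and 7.13 and 10.5 at 48 h. Of 10 RAS and ERK genes none changed, with medians of -0.02 and -0.16, and HRAS had 12.7 and 10.4 at 24 h and 12.7 and 9.81 at 48 h while ARAF had 9.31 and 12.1 and then 10.7 and 12.3.

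The sorting genes and the partner proteins of the IGF2BP family stayed under 2-fold between melatonin and DMSO. Of all tested genes 4.35% changed 2-fold at 24 h and 5.72% at 48 h. In the mannose 6-phosphate sorting list, which shares the pathway of IGF2R, 5 of 7 genes were above 0 at 24 h and 4 at 48 h. The share of all tested genes above 0 was 53.5% at 24 h and 47.5% at 48 h. M6PR, the smaller mannose 6-phosphate receptor, had 23.5 and 32.0 at 24 h and 27.9 and 28.4 at 48 h. GGA1, a sorting adaptor, had 5.92 and 5.41 and then 9.33 and 6.71. The 5 partner proteins of the IGF2BP family had medians of -0.12 and -0.13, with SYNCRIP at 20.3 and 17.0 and then 16.8 and 13.7, and DHX9 at 45.7 and 38.0 and then 31.5 and 28.7. Of the 5, 1 was above 0 at each time, YBX1, with 514 and 520 and then 288 and 315. In TPM at 24 h ELAVL1 (26.7 and 28.0), HNRNPU (69.8 and 72.4) and YBX1 (1072 and 1223) were higher in melatonin, and SYNCRIP and DHX9 lower. The direction of this list at 24 h thus depends on the scaling. In the list of LIN28, HMGA and oncofetal genes GPC3, a cell-surface proteoglycan of fetal liver, had 809 and 988 at 24 h and 1709 and 1435 at 48 h, and it rose 2-fold between the DMSO libraries (log2 fold change 1.08).

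**Figure D5:**
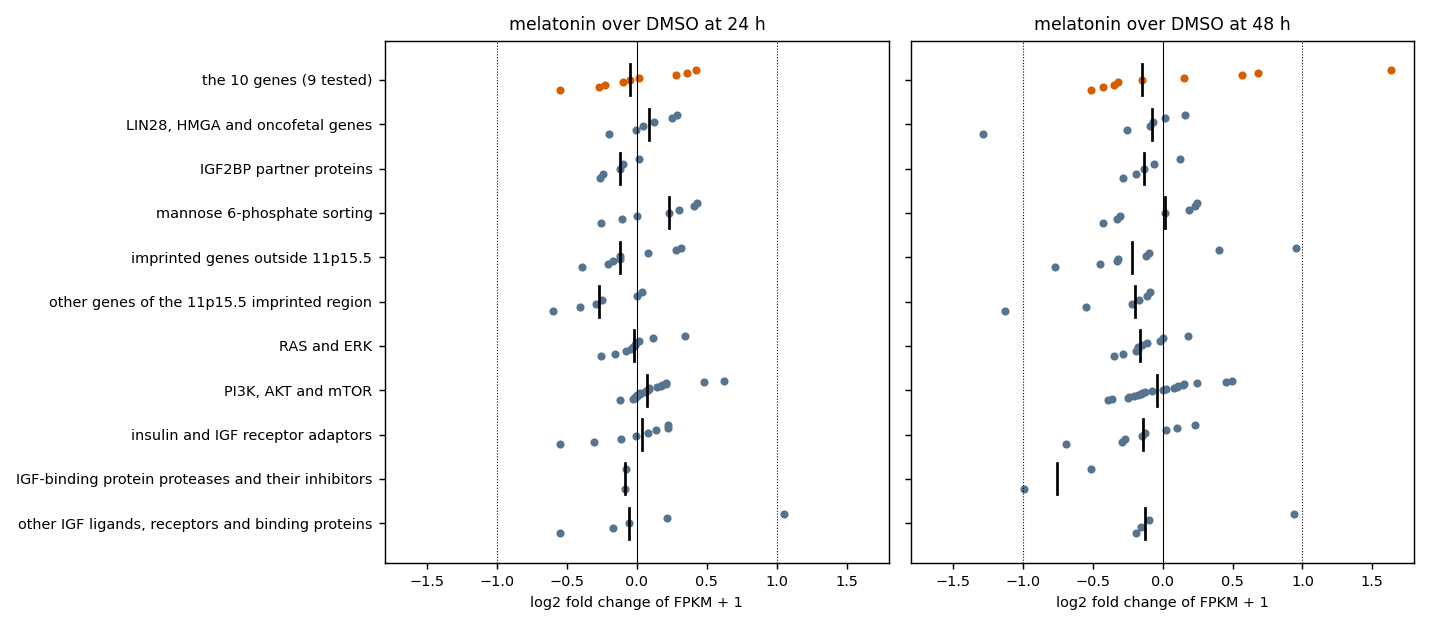
Log2 fold change of FPKM + 1 (horizontal axis), melatonin over DMSO, of the tested genes in each list (1 point a gene, black bar at the list's median) at 24 h on the left and 48 h on the right, with dotted lines at 2-fold. IGFBP1 passes the line at 24 h, and at 48 h IGFBP3 lies to the right of it at 1.63 while AFP and PHLDA2 lie left of the lower line at -1.28 and -1.13.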

How the data were processed

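Polyadenylated RNA of HepG2 cells was sequenced as paired-end reads. The paper's methods name MapSplice on hg38 and Cufflinks, while the submitters' processing notes name Bowtie2 2.0.6, TopHat2 2.0.9, Cufflinks 2.1.1 and Cuffdiff 2.1.1. The authors deposited FPKM per Ensembl gene with the gene length, without read counts, and how the library size and gene length were set is not given in the sources used here. The FPKM stayed the main values. Recovered reads gave exact Poisson intervals for levels, exact conditional binomial intervals for ratios, and a floor of 3 reads. Library sizes worked out from the FPKM steps came to 0.849 to 0.973 of the reads on genes. Fold changes used a pseudocount of 1 and a minimum FPKM of 1. The 10 genes were given by name, and the lists were written by hand, with earlier results of these data known. The named genes were the 10 members, list genes past 2-fold with melatonin (otherwise the 2 with the largest change), overlapping genes, and the 3 genes nearest in pattern to IGF2 and to H19. A gene that this last rule named is not reported here. Further list genes, and the motifs and start windows, were picked after values were seen. Scripts were tested on simulated data and used Python 3.11, numpy 2.4.6, pandas 2.3.3, scipy 1.17.1 and matplotlib 3.10.9.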

Additional observations from a re-analysis of the deposited data

Results flagged for a closer look

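On the scale of FPKM + 1 without centring, 2 of the 10 genes moved one way with melatonin at 24 h and the other way at 48 h. With 1 library a condition the difference between the times was not tested. IGF2R had a log2 fold change of 0.02 at 24 h and -0.15 at 48 h, a difference of -0.16, and at 24 h the interval of its ratio spanned 1. Centred on the median, the value of IGF2R at 24 h was -0.0055, below 0 as at 48 h. IGFBP2 had -0.05 at 24 h and 0.57 at 48 h, a difference of 0.62, and its value at 24 h changed sign with TPM, to 0.09. With TPM IGFBP2 was thus above 0 at both times, while IGF2BP2 had 0.07 at 24 h and -0.57 at 48 h. Which genes differ in direction therefore depends on the scaling.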

How the results depend on the processing

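Log2 fold changes of the 10 genes were recomputed with a pseudocount of 0.1, TPM, centring on the median, the plain sum of reads and library sizes without mitochondrial genes, and none that had passed 2-fold changed direction. Of these values 141 stayed within a counting interval and 59 did not. All values of H19 are among the 141, since its ratios had intervals without an upper end. The interval used was not that of the plain ratio. IGFBP3 at 48 h with a pseudocount of 0.1 was among the 59 at 1.89, where the log2 interval of its plain ratio was 1.74 to 2.12. For melatonin over DMSO the 1.5-fold threshold gave 2 members at 48 h in place of 1, between the DMSO libraries 2 in place of 1, and between the melatonin libraries 3 in place of 2. TPM left 1 member (IGFBP3) in place of 2 between the melatonin libraries. Between the DMSO libraries the count stayed at 1 with TPM, but the gene was IGF1R in place of IGF2. The sum of the 10 levels was 1097, 1007, 1024 and 907 in TPM over the 4 libraries. The pathway genes at 24 h numbered 1, with 2 under a pseudocount of 0.1, 3 under the 1.5-fold threshold and 3 with TPM. At 48 h they numbered 2, with 3 under a pseudocount of 0.1, 7 under the 1.5-fold threshold, 4 with TPM and 4 with library sizes without mitochondrial genes. Between the DMSO libraries they numbered 2, with 3 under a pseudocount of 0.1, 11 under the 1.5-fold threshold and 13 with TPM. Between the melatonin libraries they numbered 1, with 4 under the 1.5-fold threshold and 2 with TPM. The shares of all tested genes under these other settings are not given here. A looser threshold or a shift of all genes can raise the count of any list, so these counts are not a result about the pathway. TPM moved the median of all tested genes from 0.00 to 0.47 between the DMSO libraries, from 0.02 to 0.19 at 24 h and from -0.04 to 0.21 between the melatonin libraries, and the signs of the changes of IGFBP2, IGFBP3, IGFBP4, IGF2BP1 and IGF2BP3 between the DMSO libraries flipped with it. The ratios within a library, the restriction to protein-coding genes and a filter at 50 reads were chosen after seeing the data. No library could be left out, since each condition has 1. The labels carry no replicate numbers to pair by, and a fit of treatment with time as a block, which leaves 1 residual degree of freedom, was not run.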

Other observations

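Levels of other imprinted genes ranged widely, and these examples were picked after their values were seen. Of genes usually expressed from the maternal copy, CDKN1C and MEG3 had at most 6 reads in any library and KCNQ1 at most 8, while PHLDA2 and SLC22A18 had FPKM values of 3.20 to 8.40 and 3.70 to 7.24. Of genes usually expressed from the paternal copy, NDN and DIRAS3 had 0 reads in every library, PLAGL1, KCNQ1OT1 and SNRPN had 0.262 to 0.418, 1.47 to 2.47 and 1.67 to 2.46, and DLK1, PEG3, PEG10 and MEST had 30.5 to 51.8, 80.7 to 101, 150.1 to 291 and 6.24 to 10.0. Both kinds held genes at 0 reads and genes above an FPKM of 1. PEG10 had 255 and 269 at 24 h and 150.1 and 291 at 48 h (DMSO and melatonin), with a log2 fold change at 48 h of 0.95. NNAT had 3.61 and 2.51 at 24 h and 6.43 and 3.37 at 48 h, and SLC22A18 had 4.58 and 3.70 and then 7.24 and 4.65.

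Among 24 genes whose coordinates overlap a member, 6 had no read in any library. AL353625.1, a transcribed pseudogene inside IGF2R on the same strand, had 99, 96, 339 and 103 reads over the 4 libraries, where IGF2R had 18516, 20718, 26571 and 24283.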
